A study of Mus musculus with 12 samples.

Results

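The comparison sets the transcript response of Ocy454 cells to parathyroid hormone (PTH) against their response to PF431396, a compound that blocks the kinase activity of FAK (focal adhesion kinase) and its relative PYK2. Ocy454 is an immortalised mouse cell line that carries features of osteocytes, the cells buried in bone matrix. All cells compared here were wild type, and the groups were vehicle (named DMSO in the column names, 3 libraries), PTH (3 libraries) and PF431396 (3 libraries). The series also holds 3 libraries of PDE8A knockout cells, not analysed here. The labels give no dose or treatment time, and do not say whether DMSO was also added to the treated cells. The members were the 11324 genes listed by symbol in both the PTH table (11762 genes) and the PF431396 table (11471 genes). For each gene, log2(level + 1) of each treated library was taken minus the mean of the 3 vehicle libraries in the same table, where a level is the authors' normalised estimated count. These vehicle-relative values of the PTH libraries were then set against those of the PF431396 libraries.

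PTH binds the receptor PTH1R on cells of the osteoblast lineage, which couples to the G protein Gs, raises cAMP and activates protein kinase A. Protein kinase A phosphorylates the transcription factor CREB, which binds TGACG-containing cAMP response elements, and restrains the salt-inducible kinases, which otherwise hold CRTC coactivators and class IIa histone deacetylases in the cytoplasm. FAK and PYK2 are tyrosine kinases that sit at integrin-based adhesions, where they recruit adaptors such as p130Cas and signal toward small GTPases and ERK. In osteocytes both pathways are known for controlling sclerostin and RANKL, but the genes for these proteins (Sost and Tnfsf11) were not among the genes listed in both tables.

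Between 27715795 and 35752975 estimated counts per library fell on the listed genes, taking the smallest common step of each library's values as 1 estimated count. The values of PF431396 replicate 3 were identical to those of replicate 1 in all 11490 rows, so the group was counted as 2 libraries. Over genes, the SD of the difference between these 2 libraries was 0.67 log2 units, against 0.32 to 0.35 between pairs of PTH libraries. The direct test below takes the same spread for both groups. Its SEs and p-values can therefore be too small for genes in which the PF431396 libraries lie far apart. Vehicle library 1 differed from the mean of libraries 2 and 3 with an SD over genes of 0.72, against 0.27 between those 2 libraries. The vehicle mean is subtracted from both groups and nearly cancels in their difference. That 3881 of the 3923 calls below held when each vehicle library was left out in turn was thus largely set by the design. It does not show that vehicle library 1 is without effect. Without vehicle library 1, the genes called against vehicle went from 455 to 613 with PTH and from 3003 to 2915 with PF431396. The 13 mitochondrially encoded genes took 11.8% to 13% of the signal in the PF431396 libraries, 4.50% to 4.80% in the PTH libraries and 3.87% to 5.19% in the vehicle libraries. The labels do not say whether libraries came from separate cultures, so p-values measure the spread between these libraries, which may be technical. In cultures a smaller share of cells expressing a gene and less of its RNA per cell cannot be told apart.

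Of the 11324 genes, 3923 (34.6%) differed between the PTH and PF431396 responses by at least 1 log2 unit at an adjusted p below 0.05 (limma, two-sided, Benjamini-Hochberg over all genes). The PTH value was higher in 2195 (19.4%) and lower in 1728 (15.3%). The scaling of the libraries set how these calls split. With every library brought to the same total, the median difference over all genes moved from 0.02 to 0.43 log2 units, and 4167 genes (36.8%) were called, 3439 (30.4%) higher and 728 (6.43%) lower. The share of calls in which PTH was higher thus went from 56.0% to 82.5%. At both scalings 2923 genes were called in the same direction and 0 in opposite directions. Treated libraries were also left out 1 at a time. Without 1 PF431396 library that group holds a single library, and a gene's own spread comes from the PTH libraries alone. Those runs show whether a difference holds with either PF431396 library, not how far these vary. Of the genes called with the deposited scaling, 2350 (20.8% of all genes), 1661 higher (14.7%) and 689 lower (6.08%), were also called with equal totals and without each treated library in turn; these are named firm calls here.

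**Figure D1:**
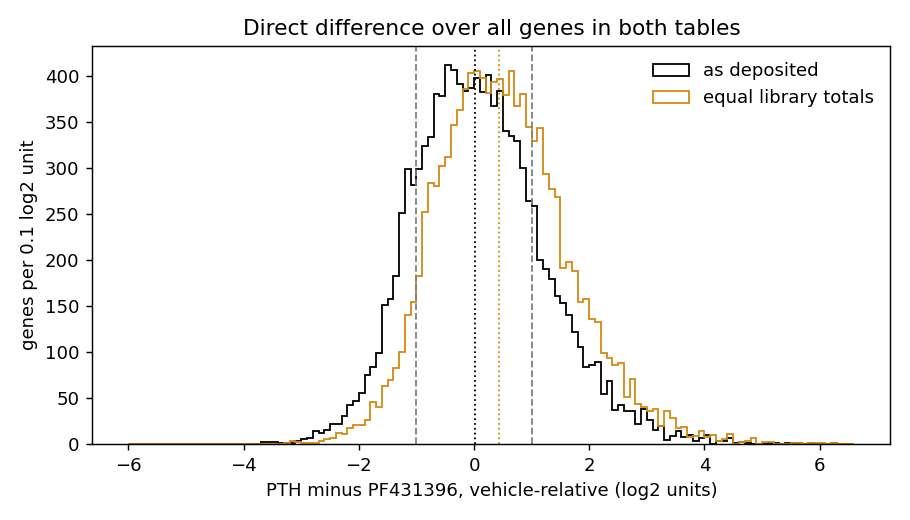
Histogram of the PTH minus PF431396 difference (log2 units) over 11324 genes, in bins of 0.1, with the deposited scaling (black) and equal library totals (orange). Dotted lines mark the medians, 0.02 and 0.43, and dashed lines the threshold of 1 log2 unit on either side; with equal totals the curve lies further to the right.

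Each treatment's own comparison with vehicle shows which side of a difference moved. Against vehicle, PTH changed 455 genes (3.87%), 336 of them upward (2.86%) and 119 downward (1.01%), and PF431396 changed 3003 (26.2%), 1256 upward (10.9%) and 1747 downward (15.2%). Without 1 library these counts fell as low as 218 for PTH (without PTH library 3, and 250 and 243 without library 1 or 2) and 1756 for PF431396 (without PF431396 library 2). With equal totals PTH changed 466 (3.96%), 292 upward (2.48%) and 174 downward (1.48%), and PF431396 changed 3814 (33.2%), 344 upward (3.00%) and 3470 downward (30.3%). Both comparisons use the same vehicle libraries. Among the 2195 genes at which PTH was higher, PF431396 had fallen below vehicle in 1503 and PTH had risen above it in 231, and in 502 neither had passed in that direction. Among the 1728 genes at which PTH was lower, PF431396 had risen in 975 and PTH had fallen in 44, and in 714 neither had passed in that direction. Where a treatment had passed, it was more often PF431396. The median SE was 0.18 log2 units for the direct difference and for the PTH response, and 0.27 for the PF431396 response.

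The targets of cAMP and CREB stood higher with PTH. Of 19 measured members of the list, 13 were called higher and 0 lower, all 13 as firm calls (15 and 0 with equal totals). The called share was 68.4%, against 34.6% over all genes, and the median difference was 1.91 log2 units, against 0.02 over all genes. Rgs2, whose product shortens signalling by heterotrimeric G proteins, had vehicle-relative log2 values of 6.02, 5.90 and 6.00 in the PTH libraries and of -1.16 and 0.63 in the PF431396 libraries. All PTH libraries lay far above both PF431396 libraries, which fell on either side of vehicle. The difference was 6.24 ± 0.51 (SE; adjusted p = 6.3e-05), the largest among firm calls with a mean level of at least 100. Each of the 3 genes of the NR4A family of orphan nuclear receptors, which are early targets of cAMP, was also higher with PTH. Nr4a2 stood at 4.83, 5.37 and 4.78 with PTH and at 0.71 and 0.58 with PF431396, a difference of 4.35 ± 0.25 (adjusted p = 1.5e-05). Nr4a3 differed by 2.99 ± 0.41 and Nr4a1 by 1.60 ± 0.15 (adjusted p = 0.0006 and 0.00011). Nr4a1 was above vehicle in both treatments, at 2.52 to 2.79 with PTH and at 1.06 and 1.07 with PF431396, and passed the test against vehicle in each.

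The upstream sequences of these 4 genes are shown because TGACG, the core that CREB binds, occurs several times in each. They run from 250 bases before the start site to the base before it, 5′ to 3′ in the direction of transcription (RefSeq, GRCm38.p6), with TGACG on either strand in capitals (CGTCA where it lies on the other strand). Rgs2 is at chr1:144004150-144004399 (minus strand), Nr4a2 at chr2:57124004-57124253 (minus), Nr4a3 at chr4:48045055-48045304 (plus) and Nr4a1 at chr15:101266596-101266845 (plus).
Rgs2: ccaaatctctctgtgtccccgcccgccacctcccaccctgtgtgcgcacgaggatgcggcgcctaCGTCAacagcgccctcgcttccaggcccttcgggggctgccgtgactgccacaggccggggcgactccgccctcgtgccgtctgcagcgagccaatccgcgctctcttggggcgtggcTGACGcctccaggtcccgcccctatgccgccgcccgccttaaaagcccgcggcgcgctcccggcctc
Nr4a2: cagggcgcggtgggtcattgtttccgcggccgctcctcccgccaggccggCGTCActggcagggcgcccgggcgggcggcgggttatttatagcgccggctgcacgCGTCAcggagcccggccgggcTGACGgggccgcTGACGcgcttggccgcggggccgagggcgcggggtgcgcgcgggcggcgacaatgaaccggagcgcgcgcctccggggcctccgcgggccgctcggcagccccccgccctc
Nr4a3: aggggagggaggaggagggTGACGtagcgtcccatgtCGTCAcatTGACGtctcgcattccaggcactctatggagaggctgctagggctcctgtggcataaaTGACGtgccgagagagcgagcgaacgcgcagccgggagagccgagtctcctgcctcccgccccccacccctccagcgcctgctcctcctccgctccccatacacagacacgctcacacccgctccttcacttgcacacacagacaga
Nr4a1: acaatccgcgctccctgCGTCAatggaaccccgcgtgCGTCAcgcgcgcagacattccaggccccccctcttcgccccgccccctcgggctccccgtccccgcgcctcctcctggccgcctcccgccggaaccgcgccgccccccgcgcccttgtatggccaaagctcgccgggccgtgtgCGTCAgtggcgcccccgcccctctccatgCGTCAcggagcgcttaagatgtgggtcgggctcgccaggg
Rgs2 holds 2 matches, 185 and 67 bases before the start, and the NR4A genes hold 4 each. The match nearest to the start lies 40 bases before it in Nr4a1, 111 in Nr4a2 and 147 in Nr4a3. Fos, which did not differ between the treatments, holds 2 such matches in its last 140 upstream bases (chr12:85473750-85473889, plus), 129 and 66 bases before the start.
Fos: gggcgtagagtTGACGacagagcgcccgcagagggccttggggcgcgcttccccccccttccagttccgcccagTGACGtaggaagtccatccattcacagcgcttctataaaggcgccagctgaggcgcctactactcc
Among list members with an upstream sequence in the table, 14 of 18 (77.8%) held TGACG on either strand, against 31.7% of the 8769 measured genes with a sequence. A gene counted if any of its sequences matched, and list members had a mean of 1.56 sequences against 1.28 over measured genes. Counted by single sequence, which is a different unit, 17.8% of all 32851 sequences of that length in the table held TGACG. A match in these letters describes the sequence and is not shown to be bound. Over all calls the share was 35.5% where PTH was higher and 26.8% where it was lower.

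The remaining called cAMP targets include genes for feedback regulators and transcription factors. Pde4b, a cAMP-degrading phosphodiesterase, stood at 3.65, 3.71 and 3.95 with PTH and at -1.01 and -0.37 with PF431396, a difference of 4.46 ± 0.23 (adjusted p = 1e-05). Sik1, a salt-inducible kinase gene that is itself induced by CREB, was above vehicle in every PTH library (1.99 to 2.21) and below it in both PF431396 libraries (-0.89 and -1.38). Its difference was 3.20 ± 0.18, and it passed against vehicle upward with PTH and downward with PF431396. Dusp1 (a MAP kinase phosphatase) differed by 2.76 ± 0.31, Cebpb (a transcription factor of the C/EBP family) by 2.30 ± 0.12, Fosl2 by 2.32 ± 0.15 and the clock repressor gene Per1 by 1.74 ± 0.31. Bdnf, a neurotrophin gene, differed by 1.91 ± 0.29 without passing against vehicle with PTH, while it fell with PF431396. The 6 members not called were Fos (-0.27), Fosb (-0.08), Junb (0.85), Nfil3 (0.46), Atf3 (-0.55) and Gadd45b (0.81). Junb and Gadd45b passed with equal totals, at 1.26 and 1.22. Crem, some of whose products repress CREB targets, was listed in the PTH table only. It was at 446.6, 293.1 and 612.8 normalised estimated counts with PTH and 120.6 to 182.4 with vehicle.

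**Figure D2:**
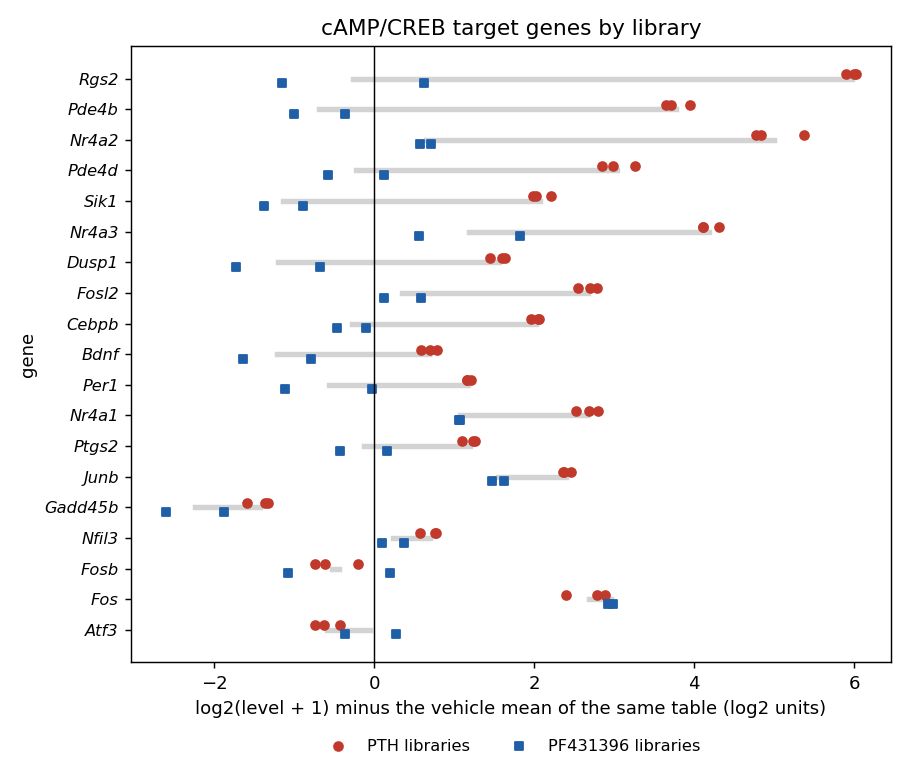
Vehicle-relative log2 values of the 19 measured cAMP/CREB targets in each PTH library (red circles) and PF431396 library (blue squares), ordered by the difference; grey bars join the group means. From Rgs2 (difference 6.24) down to Ptgs2 (1.33) the groups are separate, and Fos lies between 2.39 and 2.99 in all 5 libraries.

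The phosphodiesterase genes, whose products break down cyclic nucleotides, gave 3 higher and 0 lower of 7 measured (5 and 0 with equal totals). This was 42.9% called, with a median difference of 0.78, and 18 genes were on the list. Pde2a was listed in the PF431396 table only, where it rose with PF431396 by 2.57 ± 0.74, and is outside this count. Pde4d differed by 3.25 ± 0.27 and Pde5a, which acts on cGMP, by 2.00 ± 0.24. Pde8a, which encodes a cAMP-specific phosphodiesterase, stood at 1.23, 1.28 and 1.26 with PTH and at 0.61 and 0.35 with PF431396. The groups did not overlap, and the difference of 0.78 (95% interval 0.54 to 1.02; adjusted p = 0.00048) was under 1 log2 unit with the deposited scaling and 1.20 with equal totals, where it was called. Of the 35 components of cAMP signalling, 5 were higher and 4 lower (8 and 2 with equal totals), a share of 25.7% against 34.6% over all genes. Pth1r, the PTH receptor gene, gave 0.19, -0.09 and -0.04 with PTH and -0.27 and 0.05 with PF431396. These overlap, and the difference of 0.13 had an interval of -0.17 to 0.43. Hdac4, a class IIa histone deacetylase gene, and Akap11, an anchor for protein kinase A, were higher with PTH by 1.71 ± 0.18 and 2.08 ± 0.21. Sik2 and Sik3 were higher by 1.10 ± 0.21 and 1.19 ± 0.14. Prkar2b (a regulatory subunit of protein kinase A) and Rapgef4 (the cAMP sensor EPAC2) were lower by 2.00 ± 0.16 and 1.99 ± 0.37. Gnas, which encodes the Gs alpha subunit, was lower by 1.11 ± 0.04, but by 0.69 with equal totals, where it was not called. Of 9 genes of the RGS family, Rgs2 was called higher and Rgs14 lower (4 and 1 with equal totals).

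Among genes known to respond to PTH in bone, 5 of 9 measured were called higher and 0 lower (6 and 0 with equal totals). That is 55.6% called against 34.6% over all genes, with a median difference of 1.33. Vdr, the vitamin D receptor gene, was at 3.94, 4.13 and 4.35 with PTH and at -0.19 and -0.15 with PF431396, a difference of 4.31 ± 0.15 (adjusted p = 4e-06). Wnt4, a Wnt ligand gene, was at 4.58, 4.28 and 4.60 with PTH and at -0.37 and -1.22 with PF431396, a difference of 5.28 ± 0.30. The gap in both genes came from a rise with PTH, as PF431396 did not pass against vehicle. Lif, a cytokine gene, showed the other pattern: it was at 0.15, 0.02 and -0.06 with PTH and at -2.88 and -3.03 with PF431396. The difference of 2.99 ± 0.19 thus lay on the PF431396 side. Ptgs2, the inducible prostaglandin synthase gene, differed by 1.33 ± 0.21 and Efnb2, an ephrin gene, by 1.66 ± 0.50, a call that was lost in at least 1 run with a treated library left out. Mmp13, the collagenase that PTH induces in osteoblasts, rose with both treatments, to 3.68, 3.63 and 3.71 with PTH and to 3.00 and 3.13 with PF431396. Its difference was 0.60 (0.36 to 0.85), and 1.02 with equal totals.

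The osteocyte label was checked against 18 markers, of which 12 were listed in both tables. Sost, Mepe and Fgf23 were not listed, whereas Dmp1, Phex, Pdpn and Gja1 were. The summed level of the 12 markers was 52700 to 59744 in the PTH libraries against 28615 to 48932 in vehicle, and 51224 to 54781 in the PF431396 libraries against 23868 to 41362 in vehicle. These sums follow the deposited scaling. As a share of the listed signal they were 0.164% to 0.185% with PTH (vehicle 0.0975% to 0.164%) and 0.143% to 0.154% with PF431396 (vehicle 0.0996% to 0.166%), so that the PF431396 values lay within the vehicle range and the lowest PTH value was level with the highest vehicle value. Of the 12 markers, 4 were higher and 2 lower (4 and 1 with equal totals), or 50% against 34.6% over all genes, and the median difference was -0.60 (-0.18 with equal totals). Ackr3, an atypical chemokine receptor, differed by 3.41 ± 0.14, Pdpn (podoplanin, a protein of early osteocytes) by 2.36 ± 0.25 and Gja1 (connexin 43, which forms gap junctions between osteocytes) by 2.25 ± 0.13. Irx5, a homeobox gene, differed by 2.07 ± 0.16 although it lay below vehicle in both treatments, at -0.67 to -0.87 with PTH and at -2.82 and -2.92 with PF431396. Phex, an endopeptidase gene of phosphate control, and Cpe, a carboxypeptidase gene, were called lower at -1.57 ± 0.42 and -1.23 ± 0.11. Neither was a firm call, and Cpe was not called with equal totals (-0.81). Dmp1 was at -0.52, -1.27 and -1.74 with PTH and at 0.87 and -0.96 with PF431396. The groups overlapped and the difference of -1.13 (-2.51 to 0.26) was not called. Mef2c, a transcription factor that drives Sost, differed by -0.68 (-0.95 to -0.41).

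Of 20 osteoblast and bone matrix genes, 2 were higher and 6 lower, a called share of 40% against 34.6% over all genes, and with equal totals 2 and 2. The 2 higher genes were Dlx5 and Dlx3, homeobox regulators of osteoblast differentiation. Dlx5 was at -0.30, -0.28 and -0.48 with PTH and at -3.77 and -2.94 with PF431396, a difference of 3.00 ± 0.26 (adjusted p = 7.9e-05), and Dlx3 differed by 2.52 ± 0.31. The firmly lower genes were Phospho1, a phosphatase that starts mineralisation, and Postn, a matrix protein of periosteum. Phospho1 was at -1.11, -1.29 and -1.21 with PTH and at 1.12 and 0.60 with PF431396, a difference of -2.06 ± 0.15. Spp1, Sparc, Alpl and Smpd3 were lower by 1.09 to 1.34 with the deposited scaling only. Runx2, Sp7, Ibsp, Bglap and Col1a1 were not called, with differences of 0.19, -0.57, -0.84, -0.52 and -0.60.

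Some genes passed the test against vehicle in opposite directions in the treatments, and others in the same direction, described further on. How often each occurred is not read as a result, because both comparisons share their vehicle libraries. The opposite genes ranked first by the smaller of the 2 responses are given here. Snai1, a zinc finger repressor known from epithelial-mesenchymal transition, was at 3.37, 3.45 and 3.75 with PTH and at -2.03 and -2.06 with PF431396. Its difference was 5.57 ± 0.18 (adjusted p = 3.9e-06). Hk2, which encodes the hexokinase that starts glycolysis, was at 1.69, 1.78 and 1.87 with PTH and at -2.27 and -2.07 with PF431396, a difference of 3.95 ± 0.11. Socs3, a feedback inhibitor of cytokine receptors, differed by 4.44 ± 0.39, and Ddit4, an inhibitor of mTORC1, by 4.30 ± 0.22. The small GTPase genes Arl4d and Arl4c differed by 4.59 ± 0.23 and 3.57 ± 0.16, Net1, an exchange factor for RhoA, by 4.05 ± 0.42, and Gadd45a, a stress-response gene, by 3.64 ± 0.13. The opposite orientation, down with PTH and up with PF431396, was met by Cmya5 (-2.60 ± 0.23), the Wnt ligand gene Wnt10b (-2.23 ± 0.14) and the scavenger receptor gene Stab1 (-3.03 ± 0.46) among firm calls. Wnt10b was at -1.24, -1.03 and -1.31 with PTH and at 0.97 and 1.10 with PF431396. These genes were picked for their own responses, so their differences are a description.

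**Figure D3:**
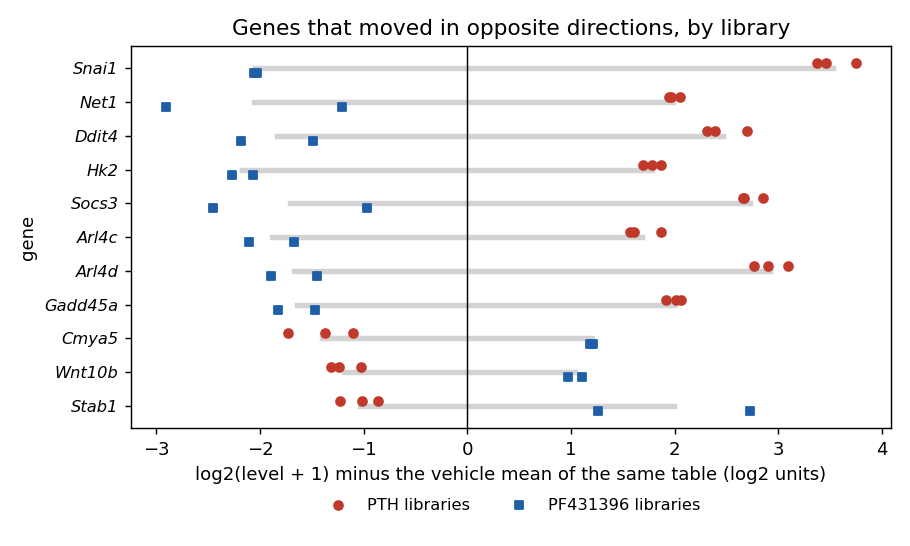
Vehicle-relative log2 values in each PTH library (red circles) and PF431396 library (blue squares) of the 8 genes ranked first among those that rose with PTH and fell with PF431396, and of the 3 firm calls with the reverse pattern; grey bars join the group means. The groups lie on opposite sides of vehicle (0) in all 11 genes.

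Some of the largest differences rested on loss with PF431396. Efna1, which encodes the ephrin-A1 ligand, was at 0.58, 0.62 and 0.54 with PTH and at -5.26 and -4.86 with PF431396, a difference of 5.64 ± 0.22 (adjusted p = 5e-06). PTH did not pass against vehicle in this gene. Tent5c, a poly(A) polymerase gene, differed by 5.10 ± 0.30, Zfp260, a zinc finger gene, by 4.60 ± 0.27 and Ctu1, which acts in tRNA thiolation, by 4.49 ± 0.30, each by a fall with PF431396. Slc43a2, an amino acid transporter gene, was at 3.97, 3.94 and 4.00 with PTH and at -0.25 and -2.70 with PF431396, whose libraries lay far apart (difference 5.44 ± 0.63). Chst12, a chondroitin sulfotransferase gene, rose with PTH and differed by 4.79 ± 0.23.

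At the other end, Rhob, an immediate-early gene for a small GTPase, was at -0.36, -0.28 and -0.52 with PTH and at 3.24 and 3.31 with PF431396. The difference was -3.66 ± 0.16 (adjusted p = 7e-06), the most negative among firm calls with a mean level of at least 100. It came from a rise with PF431396, as PTH did not pass against vehicle. Thsd7a followed at -3.61 ± 0.37 and Ltbp2, which encodes a latent TGF-beta binding protein, at -2.99 ± 0.26. Rhbdl1, Fyb1, Tmc4, Gpld1, Misp3, Matk, Ccdc24 and Pla2g4b lay between -3.49 and -2.86, with SEs of 0.32 to 0.70. Fyb1 and Pla2g4b did not pass against vehicle with PF431396, and Pla2g4b had fallen with PTH.

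The AP-1 transcription factor genes, whose products pair as Fos and Jun dimers, split by member. Of 12 measured, 4 were called higher and 3 lower (5 and 2 with equal totals), a called share of 58.3% against 34.6% over all genes. Fosl1 was at 3.40, 3.46 and 3.80 with PTH and at -1.58 and -0.70 with PF431396, a difference of 4.70 ± 0.31 (adjusted p = 2.6e-05), and Mafk differed by 1.61 ± 0.16. Jun showed the reverse, at 0.81, 0.56 and 0.93 with PTH and at 3.14 and 3.22 with PF431396, a difference of -2.41 ± 0.13, and Jund followed at -1.56 ± 0.07. Both rose with PF431396 only, by their own tests. Fos rose in both, to 2.88, 2.79 and 2.39 with PTH and to 2.92 and 2.99 with PF431396, and its difference of -0.27 had an interval of -0.70 to 0.17. All 5 libraries thus held Fos well above vehicle.

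The ERK feedback and immediate-early list, of 19 measured genes, gave 7 higher and 5 lower (9 and 4 with equal totals). With the deposited scaling 63.2% were called, against 34.6% over all genes. The dual-specificity phosphatase genes Dusp5 and Dusp4 were higher by 3.20 ± 0.24 and 2.36 ± 0.58, and Ier3 by 2.09 ± 0.13. Dusp8, a phosphatase for JNK and p38, was lower by 1.98 ± 0.31. Egr1, the zinc finger gene induced through ERK and SRF, was at -1.10, -1.24 and -1.38 with PTH and at 1.08 and 1.12 with PF431396, so that the groups lay on opposite sides of vehicle. Its difference was -2.34 ± 0.12 (adjusted p = 9.7e-06), although neither treatment passed against vehicle. Ier2 was lower by 2.02 ± 0.15. Myc was higher by 1.04 ± 0.11, a call that was lost in at least 1 run with a treated library left out.

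**Figure D4:**
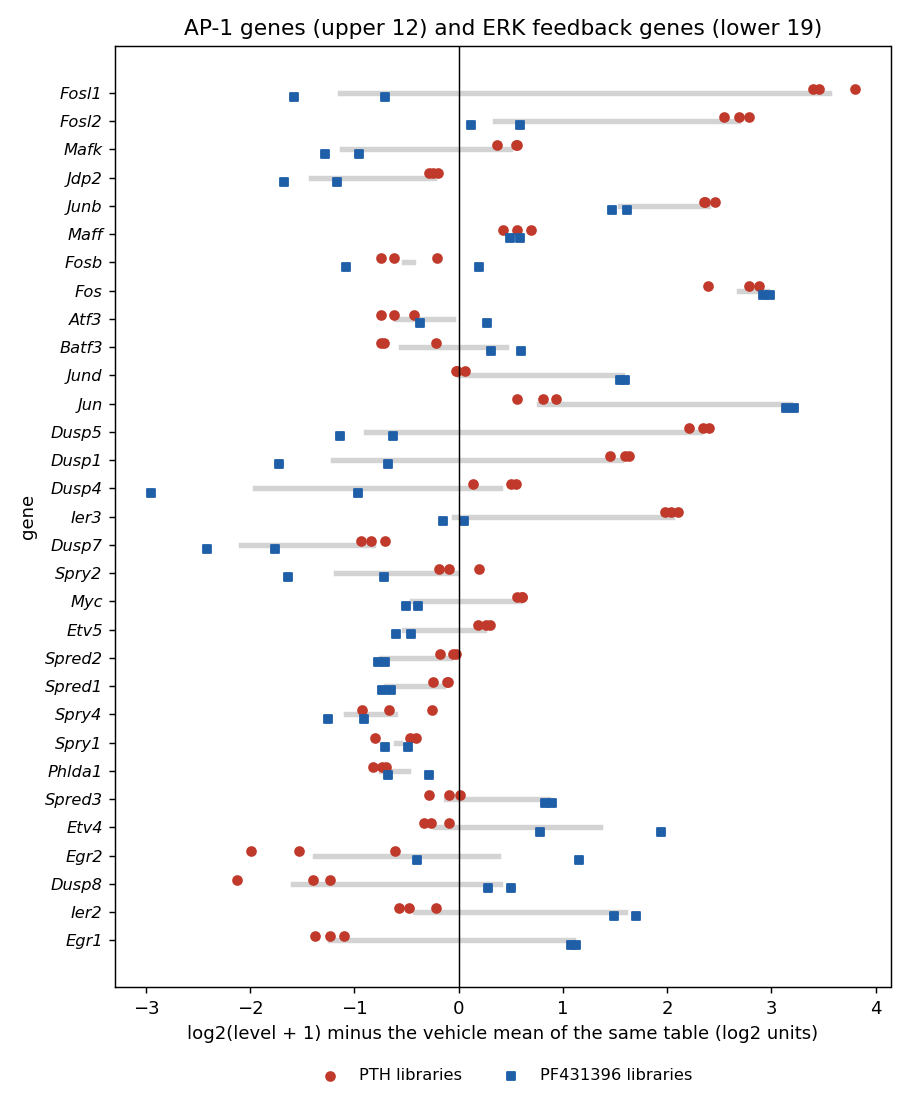
Vehicle-relative log2 values of 12 AP-1 genes (upper block) and 19 ERK feedback and immediate-early genes (lower block) in each PTH library (red circles) and PF431396 library (blue squares), each block ordered by the difference; grey bars join the group means. Fosl1 and Dusp5 lead the genes that PTH holds higher, and Jun and Egr1 lie at the other end.

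Genes of sphingosine 1-phosphate signalling, a lipid system of bone and immune cells, gave 5 higher and 1 lower of 10 measured at both scalings. This was 60% called, against 34.6% over all genes with the deposited scaling. The receptor gene S1pr1 was at 4.01, 3.91 and 4.09 with PTH and at -1.20 and -2.48 with PF431396, a difference of 5.84 ± 0.35 (adjusted p = 1.8e-05), mostly through a rise with PTH. The receptor gene S1pr2 was at 0.60, 0.30 and 0.42 with PTH and at -3.64 and -4.44 with PF431396, a difference of 4.48 ± 0.28 through a fall with PF431396. Both kinase genes, Sphk1 and Sphk2, were higher (2.11 ± 0.26 and 3.08 ± 0.16), as was the lipid phosphatase gene Plpp3 (2.30 ± 0.24). The exporter gene Spns2 was lower by 1.65 ± 0.17. In the list of ephrin, semaphorin and Slit guidance genes, 11 of 40 were higher and 9 lower (14 and 2 with equal totals), a called share of 50%. Besides Efna1, the receptor gene Ephb4 differed by 3.07 ± 0.16 and Sema4c by 2.90 ± 0.24.

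The genes for the kinases that PF431396 inhibits were not called. Ptk2 (FAK) was at -0.36, -0.31 and -0.15 with PTH and at -0.20 and 0.35 with PF431396, with a difference of -0.35 (-0.74 to 0.04) that was 0.06 with equal totals. Ptk2b (PYK2) had a mean of 34.1 normalised estimated counts in vehicle and a difference of -1.49 (-3.17 to 0.20). Of 30 FAK, PYK2 and focal adhesion scaffold genes, 4 were higher and 0 lower (7 and 0 with equal totals), 13.3% against 34.6% over all genes. The 4 encode adaptors that FAK signals through: Nedd9 (2.59 ± 0.14), Crkl (1.85 ± 0.11), Bcar1 (p130Cas, 1.63 ± 0.11) and Crk (1.12 ± 0.10). Nedd9 rose with PTH, whereas Bcar1, Crkl and Crk fell with PF431396, Bcar1 to -1.70 and -1.85. Talin, vinculin, zyxin and paxillin genes (Tln1, Vcl, Zyx, Pxn) were not called, at -0.78, -0.97, -0.45 and 0.61, and Pxn passed at 1.02 with equal totals.

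Integrin subunit genes gave 2 higher and 5 lower of 14 (3 and 1 with equal totals), a called share of 50% against 34.6% over all genes. Itga11, a collagen-binding subunit, and Itgb3, a partner of the alpha V subunit, were higher by 1.57 ± 0.17 and 1.40 ± 0.25 and rose with PTH. Itga1, another collagen-binding subunit, was lower by 1.49 ± 0.27. Itgb1, the shared beta subunit, was at 0.15, 0.12 and 0.10 with PTH and at 1.27 and 1.28 with PF431396, a difference of -1.15 ± 0.04 that was -0.74 with equal totals. Contractile and SRF target genes gave 0 higher and 9 lower of 24, and 2 and 6 with equal totals. With the deposited scaling the called share of 37.5% was near the 34.6% over all genes. All 9 calls were lower, which is 37.5% of members against 15.3% of all genes, and the median difference was -0.80. Myl9, a myosin light chain gene, was at -0.89, -0.85 and -0.62 with PTH and at 1.28 and 1.21 with PF431396, a difference of -2.03 ± 0.11 (adjusted p = 1.3e-05). Acta2, Tagln, Tpm2 and Fhl1 were firmly lower as well, by 1.57 to 1.61.

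The CArG box, which SRF binds, is CC followed by 6 bases of A or T and then GG. It lay in the 250 upstream bases of 7 of 21 genes of this list with a sequence (33.3%), against 1.44% of measured genes. Over all calls the share was 1.48% where PTH was higher and 2.30% where it was lower. Myl9 (chr2:156775214-156775463, plus strand, RefSeq, GRCm38.p6) is shown for the box, in capitals, that starts 161 bases before its start site.
Myl9: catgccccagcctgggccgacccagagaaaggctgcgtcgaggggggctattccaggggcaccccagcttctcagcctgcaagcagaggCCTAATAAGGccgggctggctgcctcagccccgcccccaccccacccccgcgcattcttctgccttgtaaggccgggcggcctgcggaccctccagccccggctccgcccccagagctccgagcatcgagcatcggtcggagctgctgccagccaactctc
Of the genes that respond to the coactivators YAP and TAZ, 2 of 22 were higher and 5 lower (4 and 1 with equal totals), a called share of 31.8% against 34.6% over all genes. Ccn1, a secreted matricellular protein gene, was firmly lower by 1.45 ± 0.13 and had fallen with PTH, while Ccn2 was not called (-0.38). Foxf2 and Amotl2 were higher by 2.39 ± 0.19 and 1.67 ± 0.13. Among 23 genes for small GTPases that organise actin and for their regulators, 5 were higher and 2 lower (7 and 1 with equal totals), a called share of 30.4%. Rnd3 and Rnd1, which oppose RhoA, and Rhod were higher by 1.97 ± 0.12, 2.21 ± 0.31 and 2.30 ± 0.23, each with a fall under PF431396.

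Collagen and collagen-processing genes gave 0 higher and 17 lower of 32, and 0 and 7 with equal totals. The called share was 53.1%, against 34.6% over all genes, and the median difference -1.03 (-0.61 with equal totals). P4ha2, a prolyl hydroxylase gene, was at 0.23, 0.30 and 0.13 with PTH and at 2.08 and 1.97 with PF431396, a difference of -1.81 ± 0.08 (adjusted p = 7.6e-06). Col16a1, Col8a1, Col5a3 and Col3a1 were firmly lower by 1.51 to 1.74. Col1a1 and Col1a2, the type I collagen genes, were not called (-0.60 and -0.34). Proteoglycan and other matrix genes gave 1 higher and 13 lower of 25 (1 and 5 with equal totals), a called share of 56%. Tnc (tenascin C) was lower by 1.65 ± 0.06, Aspn (asporin) by 1.99 ± 0.28, Ogn (osteoglycin) by 1.86 ± 0.16 and Fbln5 (fibulin 5) by 1.79 ± 0.13. Has2, a hyaluronan synthase gene, was the exception: it was at 3.20, 3.20 and 3.82 with PTH and at 1.21 and 0.04 with PF431396, a difference of 2.78 ± 0.44. Of 28 proteases and inhibitors, 4 were higher and 7 lower (6 and 2 with equal totals), a called share of 39.3%, near the 34.6% over all genes. Adamts1 and Adamts5, which cleave proteoglycans, were higher by 3.14 ± 0.15 and 2.25 ± 0.19, and Plaur, the urokinase receptor gene, by 2.04 ± 0.18. Adam8 and Ctsk (cathepsin K, a collagen-degrading protease) were lower by 3.57 ± 0.49 and 2.36 ± 0.18. Mmp2 differed by -0.12 (-0.46 to 0.22) and had risen in both.

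Sterol and fatty acid synthesis genes were higher in 15 of 30 and lower in 1 (20 and 1 with equal totals). This was 53.3% called against 34.6% over all genes, with a median difference of 0.94. Hmgcs1, an early enzyme of the mevalonate pathway, was at 0.46, 0.67 and 0.33 with PTH and at -2.81 and -2.44 with PF431396, a difference of 3.11 ± 0.15 (adjusted p = 8.6e-06). Sqle, Cyp51, Fdft1 and Mvd differed by 3.06 ± 0.11, 2.59 ± 0.09, 2.57 ± 0.17 and 2.36 ± 0.15. The sterol sensor gene Insig1 differed by 2.07 ± 0.11. Cyp51 had risen with PTH, whereas Hmgcs1, Sqle, Fdft1 and Mvd had fallen with PF431396. Tm7sf2 was the member called lower (-1.95 ± 0.41).

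In the unfolded protein and ATF4 list, 8 of 29 were higher and 3 lower (11 and 1 with equal totals), a called share of 37.9%, near the 34.6% over all genes. Xbp1, a transcription factor of the unfolded protein response, was at 0.23, 0.30 and 0.45 with PTH and at -3.59 and -3.63 with PF431396. Its difference was 3.94 ± 0.11 (adjusted p = 3.6e-06), from the fall with PF431396. Dnajb9, a chaperone of the endoplasmic reticulum, differed by 2.99 ± 0.12, and Chac1, Atf4 and Ddit3 of the ATF4 branch by 2.48 ± 0.25, 1.86 ± 0.10 and 1.85 ± 0.12. Chac1 and Ddit3 had fallen with both treatments, and further with PF431396. The chaperone genes Hspa5, Hsp90b1, Calr and Pdia6 were not called, at 0.22, -0.51, -0.27 and -0.30. With equal totals Calr and Pdia6 changed sign, to 0.14 and 0.12. The ER stress element was read as CCAAT, 9 bases of any kind and then CCACG on either strand. It occurred upstream of 6 of 27 list members with a sequence (22.2%), against 0.171% of measured genes. Among called genes with a sequence, it occurred in 0 of 1757 higher with PTH and in 1 of 1260 lower. The element thus describes the list and not the difference between treatments. Hspa5, which encodes the chaperone BiP, is shown with this element in capitals (chr2:34771840-34772089, plus strand, RefSeq, GRCm38.p6), 65 bases before its start.
Hspa5: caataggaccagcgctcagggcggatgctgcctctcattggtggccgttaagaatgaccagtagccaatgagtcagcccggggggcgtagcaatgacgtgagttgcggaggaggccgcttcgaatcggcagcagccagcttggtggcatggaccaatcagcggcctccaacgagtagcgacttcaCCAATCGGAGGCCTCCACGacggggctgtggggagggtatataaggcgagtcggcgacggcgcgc
Of 31 chaperone and heat shock genes, 4 were higher and 1 lower (11 and 1 with equal totals), a called share of 16.1%. Dnajb1, a cochaperone of HSP70, was higher by 3.19 ± 0.09 and Hspb1, a small heat shock protein gene, lower by 1.52 ± 0.18.

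Growth-arrest and p53 target genes gave 11 higher and 1 lower of 21 (13 and 0 with equal totals), a called share of 57.1%, with a median difference of 1.06. The cell cycle inhibitor genes Cdkn1a and Cdkn1b were higher by 2.35 ± 0.09 and 2.32 ± 0.13 and fell with PF431396. Cell cycle genes gave 12 higher and 3 lower of 40 (18 and 1 with equal totals), a called share of 37.5%, near the 34.6% over all genes. Ccna2 (cyclin A2) was at 0.02, 0.10 and 0.20 with PTH and at -2.17 and -2.56 with PF431396, a difference of 2.47 ± 0.13, and Cdk1 differed by 1.58 ± 0.09. Mki67, a proliferation marker, was not called (0.27). Of 16 circadian clock genes, 7 were higher and 2 lower (8 and 0 with equal totals), a called share of 56.2%. The repressor genes Bhlhe40 and Nr1d1 were higher by 3.62 ± 0.10 and 2.29 ± 0.27, while Per2 and Per3 were lower by 1.10 ± 0.20 and 1.26 ± 0.19 with the deposited scaling only.

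Wnt ligand, receptor and feedback genes gave 12 higher and 5 lower of 35 (19 and 4 with equal totals), a called share of 48.6%. The receptor gene Fzd1 was at 2.09, 2.00 and 2.50 with PTH and at -1.86 and -0.99 with PF431396, a difference of 3.62 ± 0.26, and passed against vehicle in opposite directions. Wnt9a differed by 2.99 ± 0.47, Lef1, a Wnt-responsive transcription factor gene, by 2.56 ± 0.58 and Tcf7l2 by 1.83 ± 0.17. Fzd5 and the secreted antagonist Sfrp2 were firmly lower, by 1.41 ± 0.11 and 1.58 ± 0.15. Of 36 BMP, activin and TGF-beta genes, 9 were higher and 4 lower (15 and 2 with equal totals), a called share of 36.1%, near the 34.6% over all genes. Bambi, a decoy receptor, Inhbb, an activin subunit, and Smurf2, a ubiquitin ligase for receptors and SMADs, were higher by 2.60 ± 0.28, 2.36 ± 0.22 and 2.11 ± 0.07. Bmp1, a procollagen-processing protease, was lower by 1.44 ± 0.09.

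Hypoxia and glycolysis genes gave 5 higher and 11 lower of 25 (64% called, against 34.6% over all genes), and 8 and 3 with equal totals. The regulatory genes Hk2, Pfkfb3 (2.61 ± 0.11), Egln3 (2.15 ± 0.28), Vegfa (2.00 ± 0.07) and Pfkfb4 (1.92 ± 0.37) were higher. Car9, a carbonic anhydrase induced by hypoxia, was at 0.63, 0.99 and 0.97 with PTH and at 3.13 and 3.29 with PF431396, a difference of -2.35 ± 0.13. Pdk1 and Egln1 were firmly lower too (-1.59 ± 0.12 and -1.57 ± 0.07). The enzymes Gapdh, Pgk1, Eno1, Pkm, Tpi1 and Gpi1 were lower by 1.09 to 1.26 with the deposited scaling and were not called with equal totals, at -0.67 to -0.85. Of 24 inflammatory and NF-kB genes, 7 were higher and 7 lower (10 and 6 with equal totals), a called share of 58.3%. Nfkbia, the inhibitor of NF-kB, was higher by 2.97 ± 0.18 through a fall with PF431396. The complement gene C3 was lower by 2.75 ± 0.16 and the chemokine gene Ccl5 by 2.33 ± 0.39. Il1rl1, the receptor gene for IL-33, rose with both and differed by 1.80 ± 0.38. Among 26 interferon and antigen presentation genes, 5 were higher and 7 lower (7 and 3 with equal totals), a called share of 46.2%. Ifit3 and Irf1 were higher by 3.30 ± 0.39 and 2.58 ± 0.13, and Bst2 and B2m firmly lower by 1.52 ± 0.10 and 1.43 ± 0.05.

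All 13 mitochondrially encoded genes were lower with PTH, 11 of them also with equal totals, with a median difference of -1.98 (-1.56 with equal totals). The gene mt-Nd5, for a subunit of complex I, was at 0.36, 0.31 and 0.20 with PTH and at 2.26 and 2.36 with PF431396, a difference of -2.03 ± 0.06. Nuclear genes of the respiratory chain gave 0 higher and 39 lower of 83 (47% called, against 34.6% over all genes), and 2 and 15 with equal totals. Cytosolic ribosomal protein genes gave 1 higher and 63 lower of 85 (75.3% called), and 1 and 14 with equal totals, with a median difference of -1.20 (-0.78 with equal totals). Ribosomal protein genes have processed pseudogenes that can share reads with them, so their single values are uncertain. Genes that build ribosomes and transcribe rRNA gave 21 higher and 0 lower of 43 (30 and 0 with equal totals), a called share of 48.8%, and a median difference of 1.01. Utp4, of the small-subunit processome, was at 0.08, 0.20 and 0.01 with PTH and at -1.61 and -1.66 with PF431396, a difference of 1.73 ± 0.10. Rrn3, an initiation factor of RNA polymerase I, differed by 1.70 ± 0.10 and Nop56, a core protein of snoRNPs, by 1.49 ± 0.09.

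Of 80 mitochondrial ribosomal protein genes, 22 were higher and 7 lower (32 and 1 with equal totals), a called share of 36.2%, near the 34.6% over all genes. Mrps2 was at 0.30, 0.34 and 0.24 with PTH and at -2.56 and -3.03 with PF431396, a difference of 3.09 ± 0.19. Aminoacyl-tRNA synthetase genes gave 4 higher and 3 lower of 34 (7 and 1 with equal totals), a called share of 20.6%. Lars2, the mitochondrial leucine enzyme, was at -0.04, 0.08 and 0.08 with PTH and at 2.57 and 2.66 with PF431396, a difference of -2.58 ± 0.06, and Yars2, the mitochondrial tyrosine enzyme, differed by 2.65 ± 0.19. Proteasome subunit genes gave 5 higher and 1 lower of 38 (7 and 0 with equal totals), a called share of 15.8%, led by Psmd6 at 1.98 ± 0.14. Of 289 genes named Zfp, most of them zinc finger proteins that bind DNA, 128 were higher and 7 lower (162 and 2 with equal totals), which is 46.7% called against 34.6% over all genes, with a median difference of 0.87. Zfp36l1 and Zfp36l2 encode proteins that bind AU-rich RNA rather than DNA; they differed by 3.21 ± 0.11 and 2.25 ± 0.11. Solute carrier genes gave 35 higher and 32 lower of 190 (60 and 16 with equal totals), or 35.3%, close to the share over all genes.

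**Figure D5:**
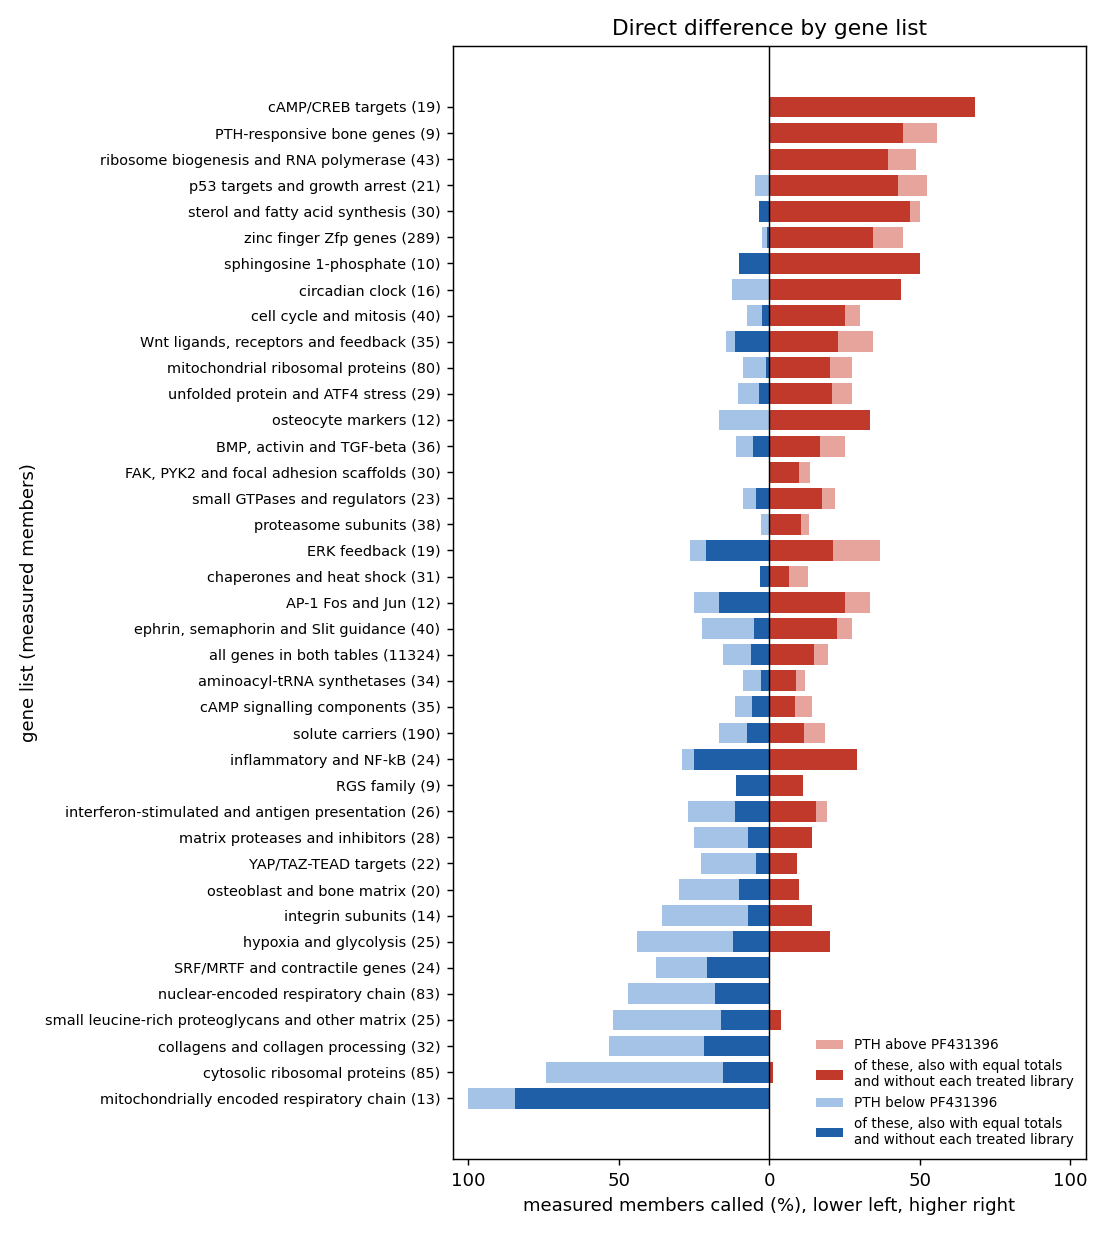
Share of measured members called higher (red, right) or lower (blue, left) in the PTH minus PF431396 difference, for lists with at least 9 measured members and for all 11324 genes; the number measured is in brackets. Dark parts are calls that also held with equal library totals and without each treated library. cAMP/CREB targets lead at the top with 13 of 19 higher, and mitochondrially encoded genes lie at the bottom with 13 of 13 lower.

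Markers of other cell types were thinly represented in both tables. Of 8 adipocyte markers, Cebpa was the measured member and was higher with PTH by 2.88 ± 0.38 (1172 to 1362 normalised estimated counts with PTH, 84.7 to 229.3 with PF431396). Of 10 macrophage and osteoclast markers, Cd68 was measured and was lower by 2.36 ± 0.45, with 183 to 456 counts with PTH and 1013 to 1867 with PF431396. Of 8 endothelial markers, Vwf was measured and was lower by 2.65 ± 0.40, with 413 to 548 and 1209 to 3353 counts. Of 9 chondrocyte markers 3 were measured, Sox9 higher by 1.66 ± 0.20 and Sox6 lower by 1.33 ± 0.29 (not with equal totals), with summed levels of 1165 to 1263 with PTH and 767 to 1120 with PF431396. Comp, a further chondrocyte marker listed in the PF431396 table only, was at 196.7 and 117.5 with PF431396 and at 21.4 to 36.0 with vehicle. Its log2 change was 2.36 ± 0.47 (adjusted p = 0.011). Matn3, listed there only as well, was not called (0.90 ± 0.73), nor was Sox5, listed in the PTH table only (0.96 ± 0.57). Of 8 muscle markers 3 were measured, Tnnt2 and Acta1 lower by 2.78 ± 0.48 and 1.49 ± 0.32, with summed levels of 263 to 546 with PTH and 809 to 1096 with PF431396. Vehicle, in the PTH and the PF431396 table in that order, held 727 to 931 and 589 to 770 for Cebpa. It held 218 to 334 and 177 to 278 for Cd68, and 359 to 812 and 238 to 551 for Vwf. Its sums were 404 to 758 and 308 to 572 for chondrocyte markers, and 871 to 3414 and 723 to 2732 for muscle markers. The PF431396 muscle sums thus lay within their vehicle range and the PTH sums below theirs. The part of such cells in the gene group differences was not tested.

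Other genes moved alike in both treatments. Besides Mmp13, Fos and Mmp2, the genes ranked first for passing against vehicle in the same direction, with the 95% interval of the difference within 1 log2 unit, were Adamtsl4, Ptn and Ecm1 (up) and Foxd1 and Lbh (down). Foxd1, a forkhead gene, was at -2.25, -2.00 and -2.27 with PTH and at -2.55 and -2.06 with PF431396, so the groups overlapped, and its difference was 0.13 (-0.31 to 0.58). Ptn, the growth factor pleiotrophin, was at 1.88, 1.89 and 2.46 with PTH and at 1.92 and 2.25 with PF431396, a difference of -0.01 (-0.58 to 0.56). The differences of Adamtsl4, Ecm1 and Lbh were 0.22, -0.31 and 0.39. These genes share their vehicle libraries between the treatments, and their selection used the responses shown.

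The called genes were also described by structure (GENCODE, GRCm38), which the selection did not use. Structure was known for 96.7% of genes. The median number of exons was 9 over all genes, 7 where PTH was higher and 8 where it was lower. Genes with at most 3 exons made up 12.9% of all genes, 23.3% of those higher with PTH and 16.4% of those lower, and among firm calls these shares were 25.3% and 20.9%. Single-exon genes made up 3.19%, 4.33% and 6.19% in the same order. The median span was 24560 bases over all genes, 18670 where PTH was higher and 16050 where it was lower. Snai1, Socs3, Ier2, Jun, Rhob and Zfp260 are compact genes of this kind, on both sides of the comparison.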

How the data were processed

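RNA-seq levels of wild type Ocy454 cells were taken from the authors' PTH and PF431396 tables. Per the submitters' processing notes, the tools were FastQC 0.11.5, Salmon and DESeq2, and the mouse build was GRCm38. The versions of Salmon and DESeq2 are not stated there. The deposited values are normalised signal, taken from their steps to be estimated counts divided by 1 size factor per library. The tables also hold the authors' log2 fold changes, adjusted p-values and −log10 of these p-values, which give no result here. In each table, unnamed rows (8 and 6) and 13 rows that share 6 symbols were left out.

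Vehicle-relative log2(level + 1) values were tested between the treatments by limma (version 3.58.1, R version 4.3.3). The variance was moderated with a trend and robustly, 3 residual degrees of freedom were left, and two-sided p-values were adjusted by Benjamini-Hochberg over 11324 genes. A gene was called at an adjusted p below 0.05 and 1 log2 unit. Each treatment was also fitted against vehicle within its own table. The tables were scaled separately, and the ratio of their vehicle means varied between genes with an SD of 0.12 log2 units. The fits were tested on simulated data. Alternatives were equal totals (with and without mitochondrially encoded genes), no vehicle subtraction, each library left out, a replicate block, pseudocounts of 0.5 and 10, a mean level of at least 100, plain limma, a spread that includes vehicle, and other thresholds.

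The members, lists and tests were chosen with earlier results of these data known. The genes named by rule were the 12 largest firm differences in each direction, up to 8 with opposite responses in each orientation, the 8 ranked first with like responses, per list, the called members with the lowest adjusted p-values (at most 4), and 15 genes of the pathways measured in both tables, besides Crem. Some single genes are not reported here. Other list members were named after their values were seen. Deviations of PTH and PF431396 libraries with the same replicate number were hardly correlated (-0.05 for number 1 and -0.06 for number 2). With 2 PF431396 libraries these values are not independent, and pairing with vehicle was not checked in this way.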

Additional observations from a re-analysis of the deposited data

Results flagged for a closer look

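Genes listed in 1 of the tables only had no direct difference, so their changes stand outside the comparison. The PTH table alone held 438 genes, of which 17 were called higher and 3 lower than vehicle, and the PF431396 table alone held 147, of which 27 were called higher and 0 lower (limma). Over all genes the shares were 2.86% higher and 1.01% lower with PTH, and 10.9% and 15.2% with PF431396. No listed value lay below 11 steps in any library. A weak gene that fell under this level with a treatment may be unlisted, so the split by direction is not read as a result. Glis1, a zinc finger gene, was at 1562, 1688 and 1585 normalised estimated counts with PTH and at 51.8 to 98.1 with vehicle, a log2 change of 4.50 ± 0.25 (SE). Clec2d, a C-type lectin gene, rose by 3.44 ± 0.22. In the PF431396 table, Tincr was at 157.2 and 294.8 with PF431396 and at 12.0 to 83.1 with vehicle, a log2 change of 2.71 ± 0.81. Pde2a, a cyclic nucleotide phosphodiesterase gene, was at 471.5 and 309.5 and at 24.1 to 143.7, a log2 change of 2.57 ± 0.74.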

How the results depend on the processing

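The count of genes called in the direct comparison (3923) lay between 3528 and 4171 over the runs without 1 library. It was 3607 with a replicate block (2060 higher, 1547 lower), and the blocks gave 401 genes for PTH and 2750 for PF431396 against vehicle. It moved to 7308 with the adjusted p alone (3855 higher, 3453 lower) and to 892 at 2 log2 units (663 and 229). The direction split followed the scaling: 3439 higher and 728 lower with equal totals, against 2195 and 1728 as deposited, 952 lower with equal totals without mitochondrially encoded genes, and 983 lower without vehicle subtraction. Without 1 library, PTH against vehicle gave 218 to 613 genes (250, 243 and 218 without PTH library 1, 2 or 3, against 455) and PF431396 against vehicle 1756 to 2915 (1756 without PF431396 library 2, against 3003). Sign changes were looked for in named genes only, not over all genes. The median difference over all genes moved from 0.02 to 0.43 with equal totals, so other genes with small differences can change sign too. The named genes that changed sign were not called at either scaling. With equal totals these were Calr (0.14), Ccn2 (0.0308), Col1a2 (0.0735), Ecm1 (0.10), Fos (0.15), Fosb (0.33), Mmp2 (0.29), Pdia6 (0.12), Ptk2 (0.0648) and Ptn (0.41). Without mitochondrially encoded genes they were Calr (0.0215), Fos (0.0241), Fosb (0.21), Mmp2 (0.17) and Ptn (0.28), and without vehicle subtraction Fos (0.00869), Fosb (0.12), Mmp2 (0.14) and Ptn (0.23). Leaving out 1 library gave Fosb -0.72 to 0.55, Ptn -0.20 to 0.15, Foxd1 -0.11 to 0.38 and Pth1r -0.0296 to 0.29. The cause was not tested. A count test was not run, because no deposited value lies below 11 steps and the worth of 1 read could not be established.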
